A study of Mus musculus with 9 samples.

Results

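Srebf1, Srebf2, Scap, Insig1, Insig2, Stard4 and Mylip are 7 of the 43346 genes counted in whole mouse liver, chosen by name because their products set the activity of the sterol regulatory element binding proteins (SREBPs), move cholesterol to the site where sterols are sensed, or remove lipoprotein receptors from the cell. All 7 were among the 15024 genes with enough reads to be tested. mRNA was measured by stranded poly(A) RNA-seq in C57/BL6 mice (C57BL/6J in the study's methods) aged 12 weeks, with 3 livers in each of 3 groups. The baseline livers, given vehicle, were sampled at 0 h, that is at the 70% partial hepatectomy. Per the study's methods, baseline tissue was the resected part, from the median and left lateral lobes. Comparisons of remnants with baseline are therefore also comparisons of different lobes. The vehicle livers were remnants taken 40 h after the operation. The NSC livers were remnants at 40 h from mice given NSC-87877 at 7.5 mg/kg per dose. The study describes NSC-87877 as an inhibitor of the phosphatases SHP1 and SHP2. Dosing of vehicle or drug was 2 times a day from 12 h before surgery, so every group was dosed before the operation. No baseline group on the drug was analysed here, and the drug was therefore compared with vehicle only at 40 h. The study calls the 3 libraries of a group biological replicates, and it is not stated whether same-numbered baseline and 40 h tissue came from 1 mouse.

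SREBPs are transcription factors made as precursors in the endoplasmic reticulum membrane. SCAP escorts a precursor to the Golgi, where proteases release its active part, and the INSIG proteins hold SCAP back when sterols are plentiful. SREBP2, from Srebf2, mainly drives cholesterol synthesis and LDL uptake, whereas the SREBP1c product of Srebf1 mainly drives fatty acid synthesis in liver and responds to insulin and to the liver X receptors (LXRs). STARD4 carries cholesterol between membranes. MYLIP, also called IDOL, is a ubiquitin ligase that sends lipoprotein receptors for degradation. These steps act largely on protein, and only mRNA was measured. In whole liver, fewer cells of a type and less RNA per cell cannot be told apart.

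The stretches before 4 of the genes are shown because Srebf2, Scap and Insig1 were the members that passed the test as lower in NSC than baseline livers, and Insig2 is the partner of Insig1 that did not pass the test. They are RefSeq sequence of GRCm38.p6, written 5′ to 3′ on the gene's strand and ending before the first annotated base of the gene, from up to 250 bases before a RefSeq start. Capitals mark matches on either strand to the E-box CACGTG, the NF-Y box CCAAT or the GC box GGGCGG.
Srebf2: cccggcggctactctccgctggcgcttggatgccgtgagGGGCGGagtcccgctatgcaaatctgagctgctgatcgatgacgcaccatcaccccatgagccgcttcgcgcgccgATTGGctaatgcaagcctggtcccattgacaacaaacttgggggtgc
Scap: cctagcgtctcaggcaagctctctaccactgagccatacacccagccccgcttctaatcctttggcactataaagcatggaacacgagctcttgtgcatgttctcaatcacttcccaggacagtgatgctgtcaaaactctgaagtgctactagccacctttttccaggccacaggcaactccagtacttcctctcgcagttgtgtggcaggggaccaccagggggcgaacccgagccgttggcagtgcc
Insig1: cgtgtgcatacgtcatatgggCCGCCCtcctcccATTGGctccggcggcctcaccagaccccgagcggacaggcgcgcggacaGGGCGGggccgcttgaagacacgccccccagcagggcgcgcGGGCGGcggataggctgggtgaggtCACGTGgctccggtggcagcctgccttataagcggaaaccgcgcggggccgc
Insig2: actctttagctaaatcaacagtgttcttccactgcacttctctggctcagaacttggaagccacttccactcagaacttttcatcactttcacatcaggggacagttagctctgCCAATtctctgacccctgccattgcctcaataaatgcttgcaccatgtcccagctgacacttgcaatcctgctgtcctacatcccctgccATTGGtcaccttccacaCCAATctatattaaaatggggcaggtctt
These lie at chr15:82147019-82147180 on the plus strand for Srebf2, chr9:110333038-110333287 on the plus strand for Scap, chr5:28071162-28071362 on the plus strand for Insig1 and chr1:121332590-121332839 on the minus strand for Insig2. A match to the core of a sterol regulatory element, CACNCCAC, was searched in the full 250 bases before a RefSeq start. For each member this was 1 start, the listed one nearest the 5′ end of its deposited gene span. Other listed starts of a member were not searched. Of 32851 mouse starts, 5.29% held a match. Among the 6 members searched, all but Stard4, a match occurred only before Insig1. It was CACGCCAC on the reverse strand, 9 to 2 bases before the start and beyond the stretch printed. Only exact matches to CACNCCAC were counted, so elements with other letters were not found. Insig1 also held 1 E-box, found before 6.02% of starts, 1 NF-Y box, found before 33.8%, and 3 GC boxes, found before 32.7%. Before Srebf2 there were 4 GC boxes and 1 NF-Y box, of which those nearest the start are not in the printed stretch. Insig2 had 3 NF-Y boxes and no GC box. The Scap stretch held none of the 4 motifs. RefSeq listed 2 starts for Scap, 3 each for Insig2 and Srebf1, and 1 each for Srebf2, Insig1 and Mylip. The letters are a description only, and gene counts do not tell which start was used.

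Levels were first ordered per length, as FPKM (fragments scaled to gene length and library total), which allows genes to be compared with each other. In baseline liver Insig1 was highest, at 143 ± 8.83 FPKM (mean ± SD, n = 3 here and below). Insig2 followed at 76.3 ± 47.3, Srebf1 at 47.8 ± 11.9 and Scap at 32.0 ± 4.24 FPKM. Stard4 was at 21.6 ± 1.16, Srebf2 at 11.7 ± 1.39 and Mylip at 1.91 ± 1.00 FPKM. The range of Insig2, 29.1 to 124 FPKM, took in all 3 Srebf1 values and overlapped that of Scap, so these neighbours were not separated. The other neighbours in the order did not overlap. Srebf1 therefore stood above Srebf2 in every baseline liver. In the vehicle remnants the pair was at 15.2 ± 7.35 FPKM for Srebf1 and 14.9 ± 2.25 FPKM for Srebf2, with overlapping ranges. The NSC remnants held 17.8 ± 11.6 FPKM of Srebf1 and 9.03 ± 1.32 FPKM of Srebf2. Insig1 and Insig2, apart by their means at baseline, were at 77.0 ± 13.7 and 76.5 ± 30.3 FPKM in the NSC livers.

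Library totals ran from 31187349 to 33943842 gene counts at baseline, from 27956396 to 42887589 in the vehicle group and from 23997363 to 30201051 in the NSC group. Mylip had 104 to 319 counts per library and the other 6 members at least 924, so its counting error was the largest, with an SD of 0.14 on the log2 scale at its lowest count.

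One baseline liver stood apart. Baseline replicate 2 held 81.0 CPM of the clock output gene Dbp, where the other baseline livers held 0.411 and 1.29 CPM and the remnants 0.554 to 1.32 CPM. Its level of Arntl, a core clock activator, was 1.65 CPM, where the other 8 livers had 21.6 to 35.5 CPM. Both genes were chosen after their values were seen. The same liver had the highest baseline values of Srebf1 and Mylip and the lowest of Insig2. Tests of the members against baseline are therefore also given without it. Then Scap and Insig1 passed in NSC against baseline and Srebf2 did not, and no member passed in vehicle against baseline. Counts of the sterol synthesis, fatty acid synthesis and clock lists below are also given without this liver. Except in the ranges over left-out libraries at the end, other list counts and the values of single list genes include it.

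From here on, values are CPM (counts scaled to library total) after TMM normalization, which compare 1 gene across livers, and log2 fold changes carry their SE from edgeR's quasi-likelihood fit to all 9 libraries. A gene passed at an adjusted p (Benjamini-Hochberg over 15024 genes) under 0.05.

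**Figure D1:**
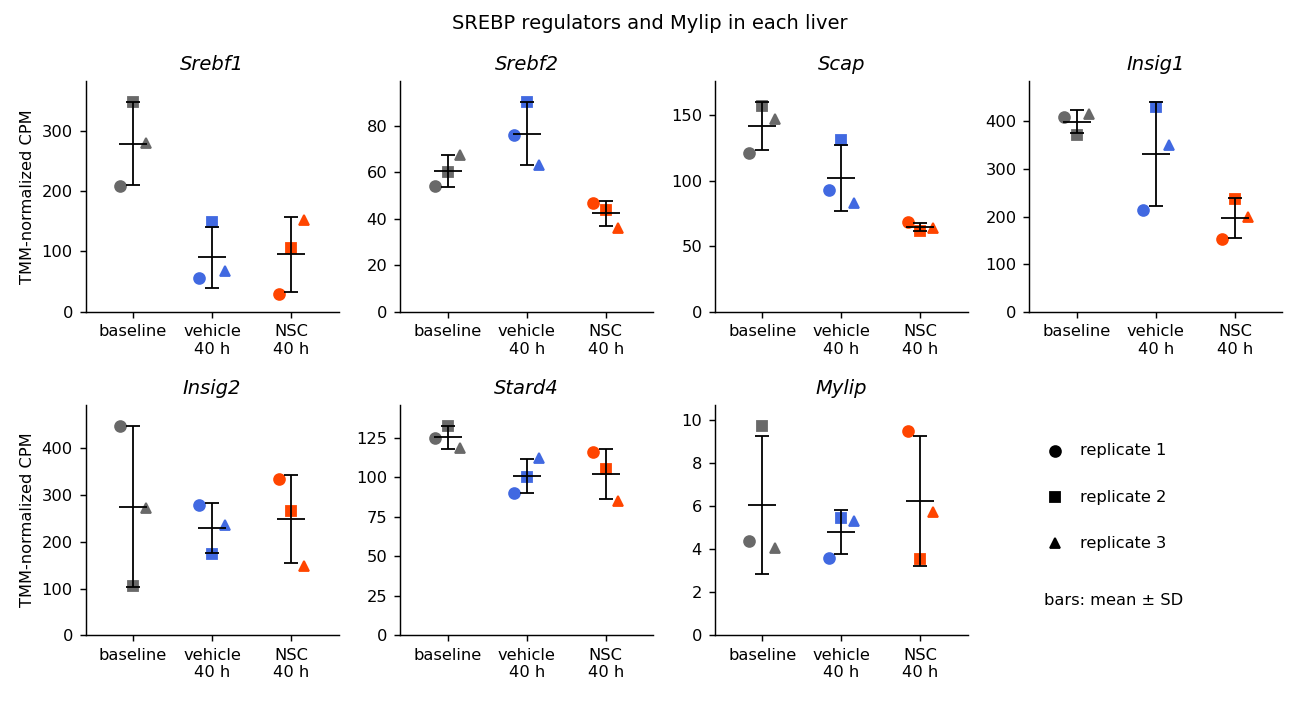
TMM-normalized CPM of the 7 genes in each liver, 1 panel per gene with its own linear axis from 0. Symbols are single livers, and bars give the mean and SD of 3 livers. Srebf1, Srebf2, Scap, Insig1 and Stard4 are below every baseline liver in all 3 NSC livers, while the Insig2 and Mylip groups overlap throughout. Of all tested genes, 23.1% were lower without overlap in NSC than baseline livers.

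Against baseline, none of the 7 genes passed in the vehicle remnants, where 23.7% of all tested genes did (12.7% higher and 11.0% lower). In the NSC remnants Scap, Insig1 and Srebf2 fell and none rose, against 34.7% of all tested genes that changed (18.2% higher and 16.5% lower). Between NSC and vehicle at 40 h none of the 7 passed, as only 6 genes in all did, or 0.0399%. At an unadjusted edgeR p under 0.05 the members numbered 2, 4 and 3 in these 3 comparisons, beside 37.0%, 45.2% and 19.5% of all tested genes. DESeq2 called 1, 4 and 2 members, beside 28.1%, 38.1% and 5.03% of all genes. No passing member changed by more than 1.5 on the log2 scale. Both comparisons with baseline use the same 3 baseline libraries, so their values are given side by side only.

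**Figure D2:**
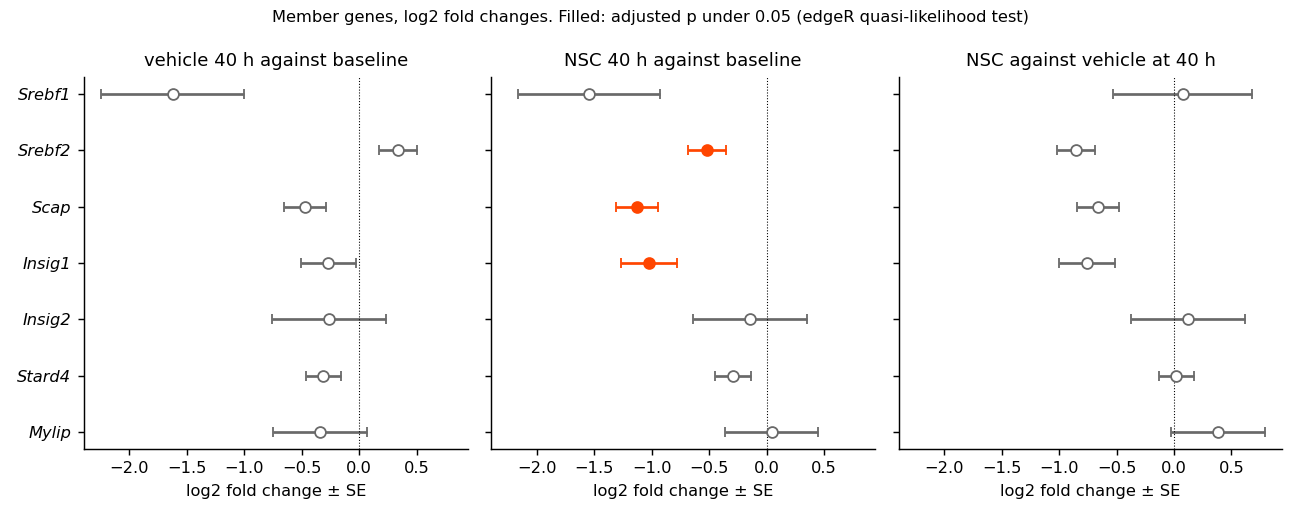
Log2 fold change of each gene with its SE in the 3 comparisons. Filled points passed the edgeR test at an adjusted p under 0.05, namely Srebf2, Scap and Insig1 in NSC against baseline, and open points did not.

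Srebf2, which encodes the SREBP of cholesterol synthesis, read 54.1, 60.2 and 67.6 CPM in the baseline livers. The vehicle remnants held 76.2, 90.3 and 63.3 CPM. In the NSC remnants it was at 46.9, 43.9 and 36.2 CPM. The NSC values lay below every value of both other groups, and the vehicle values overlapped baseline with a higher mean. The log2 fold change was -0.52 (SE 0.16, edgeR adjusted p = 0.0289) for NSC against baseline and 0.34 (SE 0.16, adjusted p = 0.157) for vehicle against baseline. Its largest difference was between the remnants, -0.86 (SE 0.17), where NSC livers held 0.552 times the vehicle level. There the unadjusted edgeR p was 0.000222 and the adjusted p 0.0849, and DESeq2 gave an adjusted p of 0.00187. The fall from baseline was the least firm of the 3. It did not pass in edgeR with library size as the only scaling (adjusted p = 0.0996), nor without baseline replicate 2, baseline replicate 3, NSC replicate 2 or NSC replicate 3 (adjusted p of 0.058 to 0.124). Srebf2 transcripts have a GC content of 57.9%, above that of 90.8% of tested genes, and with a GC correction chosen after seeing the data the log2 fold change was -0.14 (edgeR adjusted p = 0.478), and -0.48 between the remnants.

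Srebf1, the gene of SREBP1c and SREBP1a, was at 209, 347 and 281 CPM at baseline. After surgery it read 56.0, 148 and 67.1 CPM with vehicle and 28.8, 105 and 152 CPM with NSC. All 6 remnants were below all 3 baseline livers. The log2 fold changes from baseline had the largest size of any member, -1.62 (SE 0.62, edgeR adjusted p = 0.0984) with vehicle and -1.55 (SE 0.62, adjusted p = 0.0904) with NSC, but neither passed. Remnants spread widely. The NSC livers spanned a 5.29-fold range, and the SD of log2 CPM within groups was 0.87, above that of 96.2% of tested genes, where the median was 0.28. DESeq2 gave adjusted p-values of 0.0267 and 0.0293 for the same contrasts. Without baseline replicate 2, the highest liver, they were -1.43 and -1.36 (edgeR adjusted p = 0.226 and 0.214). The remnants differed from each other by 0.07 (SE 0.61, edgeR adjusted p = 0.960). Groups without overlap were common among all tested genes, with 22.0% lower and 24.2% higher in vehicle than baseline, and 23.1% and 24.0% with NSC.

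The balance of both SREBP genes was taken per liver, as the log2 ratio of Srebf2 to Srebf1 FPKM. It was -2.00 ± 0.31 at baseline, 0.06 ± 0.58 with vehicle and -0.70 ± 1.43 with NSC. Vehicle remnants were all above baseline, by 2.06 (1.88 without baseline replicate 2), with p = 0.1 in a two-sided exact permutation test, the smallest that 3 against 3 allows. The NSC ratio overlapped both other groups (exact permutation p = 0.3 against baseline and 0.5 against vehicle).

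Scap, the escort on which both SREBPs depend, was the member with the smallest adjusted p. Baseline livers held 122, 157 and 147 CPM. Vehicle remnants held 93.2, 131 and 82.9 CPM, which overlapped baseline. NSC remnants held 68.4, 61.9 and 64.1 CPM, a narrow range below every other liver. Scap fell by 1.13 on the log2 scale from baseline to NSC (SE 0.18, edgeR adjusted p = 0.000862), to 0.457 times the baseline level. This passed under all 17 alternatives, with adjusted p at most 0.00632, and was -1.05 without baseline replicate 2. The GC content of Scap, 59.1%, is above that of 94.4% of tested genes, and the log2 fold change after the GC correction was -0.70 (edgeR adjusted p = 0.00536). For vehicle against baseline it was -0.47 (SE 0.18, adjusted p = 0.0773), and for NSC against vehicle -0.66 (SE 0.18, edgeR adjusted p = 0.104), with no overlap between the remnants. The last was -0.26 after the GC correction, and DESeq2 gave it an adjusted p of 0.03. Among all tested genes, 12.2% were lower and 10.3% higher without overlap in that contrast.

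Insig1, a retention protein whose gene is itself a known SREBP target, was even at baseline, with 410, 372 and 416 CPM. Vehicle livers varied more, at 214, 430 and 350 CPM. NSC livers were at 153, 237 and 199 CPM, below all baseline livers, although vehicle replicate 1 lay within their range. Insig1 fell by 1.02 from baseline to NSC on the log2 scale (SE 0.24, edgeR adjusted p = 0.00677) and passed under all 17 alternatives, at -1.07 without baseline replicate 2. Its GC content, 48.2%, is near the median of 49.7%, and the GC-corrected value was -1.17 (edgeR adjusted p = 0.00481). The difference was -0.27 (SE 0.24, adjusted p = 0.449) for vehicle against baseline and -0.76 (SE 0.24, edgeR adjusted p = 0.137) for NSC against vehicle. The vehicle value rested on single livers, at -0.03 without vehicle replicate 1 and -0.50 without vehicle replicate 2.

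Insig2, the second retention protein, did not pass in any comparison and varied far more within groups. It read 447, 105 and 272 CPM at baseline, 279, 174 and 235 CPM with vehicle, and 333, 266 and 148 CPM with NSC. The 3 groups overlapped, and baseline alone covered a 4.27-fold range. The SD of log2 CPM within groups was 0.73, above that of 93.2% of tested genes. Log2 fold changes were -0.26 (SE 0.50), -0.14 (SE 0.50) and 0.12 (SE 0.50) for vehicle against baseline, NSC against baseline and NSC against vehicle (edgeR adjusted p of 0.752, 0.849 and 0.919). Without baseline replicate 2, the lowest liver, the first pair was -0.65 and -0.53 (edgeR adjusted p = 0.213 and 0.271). With SEs of this size, a change of Insig2 as large as that of Insig1 was not detectable. The log2 ratio of Insig1 to Insig2 FPKM was 1.14 ± 0.99 at baseline, 0.86 ± 0.85 with vehicle and 0.08 ± 0.78 with NSC. Two-sided exact permutation p-values were 0.7 for vehicle against baseline, 0.2 for NSC against baseline and 0.4 between the remnants, where 3 against 3 cannot go below 0.1. Without baseline replicate 2 the first difference turned from -0.27 to 0.25 and the second went from -1.06 to -0.53.

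Within each group the livers were ordered by Insig2 in exactly the reverse of their order by Srebf1. At baseline replicate 1 had the least Srebf1 and the most Insig2, replicate 2 the opposite. The vehicle livers ran the same way, with replicate 1 lowest in Srebf1 and highest in Insig2. Among NSC livers replicate 1 again had the least Srebf1, and replicate 3 the most. This was seen after the values were examined and is given as a description. Of 15023 other tested genes, 129 (0.859%) had the reverse order in all 3 groups and 136 (0.905%) had the same order. None of the other 5 members did either. In the gene lists described below, Tm7sf2 had the same order as Srebf1, Dab2, Apob and Gramd1c had the reverse, and no fatty acid synthesis gene had either.

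**Figure D3:**
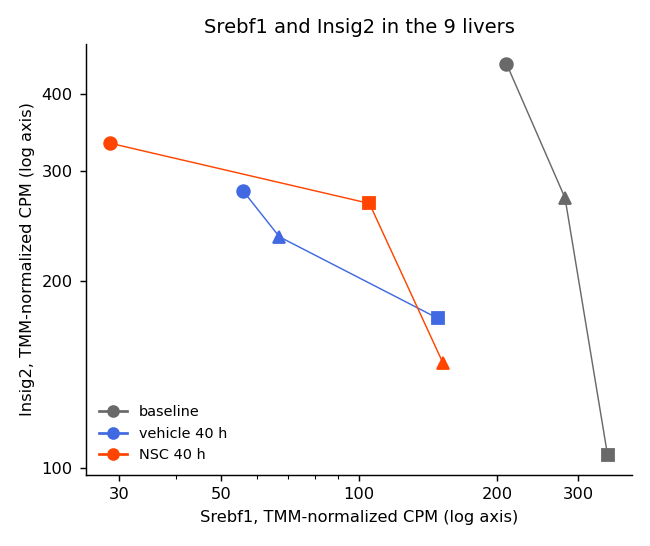
Insig2 against Srebf1 in the 9 livers, both in TMM-normalized CPM on log axes. Colors give the group, symbols the replicate number as in the plot of all 7 genes, and lines join the 3 livers of a group. Each line descends from left to right, and the baseline line lies to the right of both others.

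Stard4, the cholesterol carrier, was the steadiest member, with a within-group SD of 0.17 on the log2 scale. It measured 124, 133 and 118 CPM at baseline, 90.2, 100 and 112 CPM with vehicle, and 116, 105 and 85.1 CPM with NSC. All 6 remnants were below all baseline livers, and the remnants overlapped each other. The log2 fold changes were -0.31 (SE 0.15, edgeR adjusted p = 0.164) and -0.29 (SE 0.15, edgeR adjusted p = 0.162) from baseline (-0.27 and -0.25 without baseline replicate 2), and 0.02 (SE 0.15, adjusted p = 0.958) between the remnants. Stard4 has a GC content of 43.9%, above that of only 20.5% of tested genes. With the GC correction it was at -0.53 and -0.72 from baseline (edgeR adjusted p = 0.0112 and 0.00234), so its call turned on that setting.

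Mylip was scarce, and its groups overlapped in every comparison. Values were 4.39, 9.74 and 4.06 CPM at baseline, 3.60, 5.47 and 5.32 CPM with vehicle, and 9.48, 3.53 and 5.71 CPM with NSC. The highest values were those of baseline replicate 2 and NSC replicate 1. Log2 fold changes were -0.34 (SE 0.41), 0.04 (SE 0.41) and 0.38 (SE 0.41) in the order used above, with edgeR adjusted p of 0.587, 0.946 and 0.627. Without baseline replicate 2 the first pair was 0.18 and 0.56 (edgeR adjusted p = 0.774 and 0.276).

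The genes most like each member were found as those with the smallest root mean square difference of centred log2 CPM over the 9 libraries. For Srebf2 they were Pglyrp2 (0.11), Col15a1 (0.11) and Lcat (0.12), and for Scap Cdc42bpg (0.10), Dopey2 (0.11) and Eef2 (0.12). Insig1 was closest to F7 (0.19), Cyp4f14 (0.20) and Cps1 (0.20), which are coagulation factor VII, a cytochrome P450 and the first enzyme of the urea cycle. Stard4 had the nearest neighbours of all, Cecr2, Dhx33 and Zbtb43 (0.07 to 0.08). Srebf1 had the most distant, 1810046K07Rik (0.32), Ces2a (0.34) and Hes6 (0.35). The measure is not scaled to a gene's own variation, so a steady gene tends to have nearer neighbours than a variable one. Insig2 was nearest to Slc30a10, Cpeb4 and Gm2061 (0.22 to 0.25), and Mylip to Lrrc8c, Itpa-ps1 and Vwa3b (0.23 to 0.26). No member was among the nearest 3 of another member.

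The wider pathway was followed in lists of genes, named for what their products do. Each count against baseline stands beside the share of all tested genes that passed. That share was 12.7% higher and 11.0% lower with vehicle, and 18.2% higher and 16.5% lower with NSC. Where a count was 5 or fewer, its genes are named as far as they are reported here, also those outside the naming rule, chosen after their values were seen. Of the machinery that processes or degrades SREBPs and their regulators, 23 genes were tested. Against baseline, 4 were higher and 1 lower with vehicle, and 6 were higher and 2 lower with NSC. The list median was 0.11 and 0.08 on the log2 scale, beside 0.01 for all genes in both comparisons. Mbtps1, the site-1 protease, was at 0.13 and -0.02 (edgeR adjusted p = 0.504 and 0.938). Mbtps2, the site-2 protease, was at 0.32 with vehicle and rose by 0.78 with NSC (edgeR adjusted p = 0.306 and 0.0156). Erlin1, a membrane protein that takes part in regulated degradation in the endoplasmic reticulum, rose in both, by 0.65 and 0.94 (edgeR adjusted p = 0.00901 and 0.000862). With vehicle, Syvn1 (1.22) and Tmem41b (0.60) also rose and Sar1b (-0.54) fell. With NSC the 2 that fell were Creb3l3 (-0.70) and Nploc4 (-0.46). Syvn1, a ubiquitin ligase of the endoplasmic reticulum, was at -1.56 between the remnants without passing (edgeR adjusted p = 0.0847).

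Of 20 sterol synthesis genes known as SREBP2 targets, 11 fell and none rose in NSC livers against baseline, with a list median of -0.77. In vehicle livers the median was -0.08, with 1 gene higher and 1 lower, the latter Acat2 (-0.67). Without baseline replicate 2 the passing genes numbered 10 with NSC and 2 with vehicle. Between the remnants the median was -0.59 beside 0.02 for all genes. There 19 of 20 had lower values with NSC and 11 had an unadjusted p under 0.05, but only Mvd passed. Mvd, which makes isopentenyl diphosphate, was at 32.0, 39.1 and 55.0 CPM at baseline and 29.7, 43.4 and 38.5 CPM with vehicle. The NSC livers held 11.0, 12.0 and 9.59 CPM of Mvd. It fell by 1.95 from baseline and by 1.78 from vehicle (edgeR adjusted p = 9.19e-05 and 0.0341). Pmvk, a kinase of the mevalonate pathway, fell by 1.55 from baseline to NSC (edgeR adjusted p = 0.00118).

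Of the 17 tested fatty acid synthesis genes known as SREBP1 targets, 8 fell with vehicle and 11 with NSC against baseline, none rose, and the medians were -0.96 and -1.88. With vehicle 15 of the 17 had a negative sign, and with NSC all 17. Without baseline replicate 2 the passing genes numbered 7 and 10. Me1, malic enzyme, fell by 2.33 and 1.88 (edgeR adjusted p = 9.04e-05 and 0.000189), and Pcyt2, of phosphatidylethanolamine synthesis, by 0.93 and 1.49. Fasn, fatty acid synthase, was at -1.34 with vehicle (edgeR adjusted p = 0.095) and fell by 2.50 with NSC (adjusted p = 0.00807). No gene of this list passed between the remnants, where the median was -0.27 and 2 had an unadjusted edgeR p under 0.05; DESeq2 also called none.

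**Figure D4:**
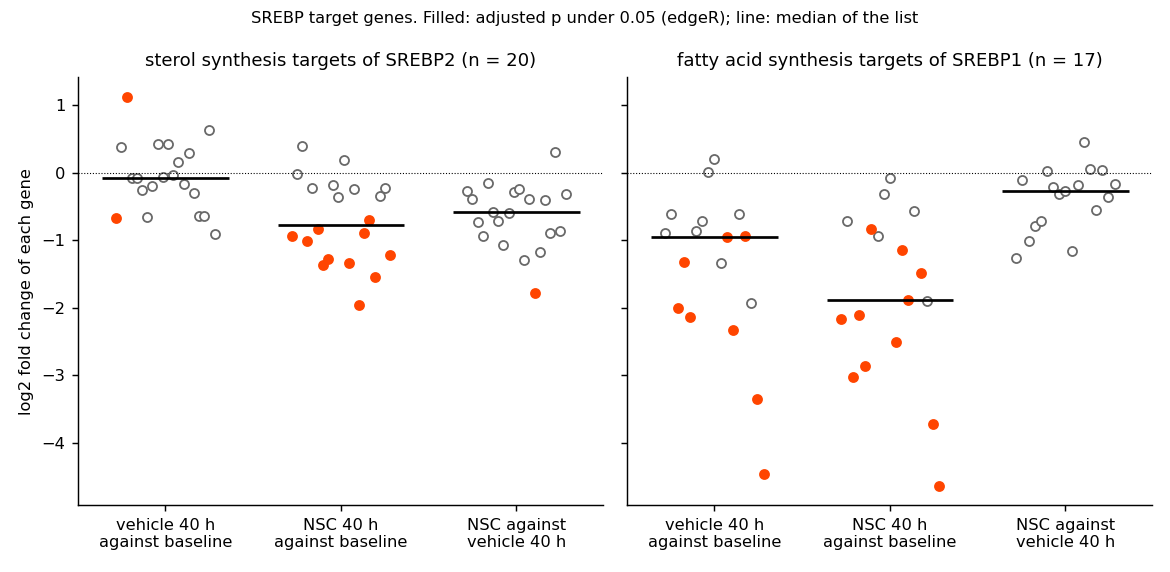
Log2 fold change of each of 20 sterol synthesis genes (left) and 17 fatty acid synthesis genes (right) in the 3 comparisons. Filled points passed the edgeR test, and lines are list medians. The sterol genes lie around 0 with vehicle (median -0.08) and mostly below it with NSC (median -0.77), while 15 of the fatty acid genes lie below 0 with vehicle and all 17 with NSC (medians -0.96 and -1.88).

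Of 20 tested genes of lipoprotein receptors and their handling, 1 was higher and 2 lower with vehicle than at baseline. With NSC 2 were higher and 8 lower. The shares of all tested genes were 12.7% higher and 11.0% lower with vehicle, and 18.2% and 16.5% with NSC. Apoe fell by 1.12 and 1.53 with vehicle and NSC. The receptor gene Vldlr, whose protein MYLIP removes, fell by 1.81 and 2.10. Vldlr was scarce, at 3.95 ± 1.12 CPM at baseline, 1.12 ± 0.16 with vehicle and 0.90 ± 0.86 with NSC. The genes that rose with NSC were Dab2 (1.07), an endocytic adaptor, and Ube2d2a (0.50). None passed between the remnants, although 9 of the 20 had an unadjusted edgeR p under 0.05 and DESeq2 called 4.

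LXR drives both Srebf1 and Mylip. Of 17 tested LXR factors and targets, 1 was higher and 8 lower with vehicle, and 2 were higher and 10 lower with NSC. The LXR gene Nr1h3 was at -0.04 and -0.17 and the exporter gene Abca1 at 0.22 and 0.08, none passing in edgeR. Abcg1, another exporter, rose by 0.89 and 1.32 (edgeR adjusted p = 0.0182 and 0.0016), and Lpl, lipoprotein lipase, rose with NSC by 1.87. Pltp, the phospholipid transfer protein, fell by 2.88 and 2.98. Mlxipl, which encodes ChREBP, was at -0.99 and -1.64, and passed in both. Of 20 sterol transport genes, 5 fell with vehicle, namely Stard5, Npc1, Osbpl2, Scp2 and Soat2 (-0.43 to -0.99). With NSC 6 fell, and Soat1, a cholesterol esterifying enzyme, rose by 1.15, from 2.24 ± 0.38 to 4.96 ± 2.17 CPM. Of 7 oxysterol and bile acid enzymes, Cyp27a1, Cyp46a1 and Cyp8b1 fell in both comparisons and Hsd3b7 with NSC (-0.89). Cyp46a1 was near the floor, with means of 2.79 CPM at baseline, 0.23 with vehicle and 0.19 with NSC. Cyp27a1 makes an oxysterol that acts on LXR, and fell by 1.15 and 1.78 (edgeR adjusted p = 0.00402 and 0.000257).

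Srebf1 is known to follow feeding and the hour of day in liver. Per the study's methods food was freely available and surgery was timed to the light cycle. The hour at which each liver was taken is not given in the sources used here. By that design the remnants, at 40 h, would have been taken at another hour of day than the baseline tissue. Hour of day and time since surgery therefore cannot be told apart in the comparisons with baseline. Of 19 circadian clock genes, 6 fell with vehicle and 7 with NSC, and none rose. The counts were 5 and 7 without baseline replicate 2, the liver that stood apart in Dbp and Arntl. The baseline livers thus differed among themselves in these clock genes, and the others were near the remnants in both. Whether all baseline livers were taken at the same hour was not tested. Nr1d1, the clock repressor that also acts on lipid genes, fell by 2.45 and 2.57, and Cry2 by 1.62 and 1.76. Per1 was at -1.01 with vehicle (edgeR adjusted p = 0.0686) and fell by 2.24 with NSC. Their part in the Srebf1 values was not tested.

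Cell type markers moved too. The summed level of 10 hepatocyte markers was 131602 to 137481 CPM at baseline, 96563 to 137066 with vehicle and 100064 to 119592 with NSC. That of 13 macrophage markers was 251 to 352, 246 to 445 and 421 to 711 CPM, and that of 10 stellate cell markers 211 to 254, 436 to 606 and 269 to 506 CPM. That of 6 cholangiocyte markers was 37.8 to 40.7, 76.0 to 115 and 79.1 to 122 CPM. Sums of the other cell types are not given here. Most of the hepatocyte sum was Alb, at means of 92303, 90830 and 86299 CPM. Against baseline, 4 hepatocyte markers were lower with vehicle and 5 with NSC. Those higher with vehicle and with NSC numbered 3 and 6 for macrophages, 7 and 3 for stellate cells, and 4 and 3 for cholangiocytes. The shares of all tested genes are given above. No marker of the 8 cell types was at 0 throughout a group. Their part in the falls of Scap, Insig1 and Srebf2 was not tested.

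**Figure D5:**
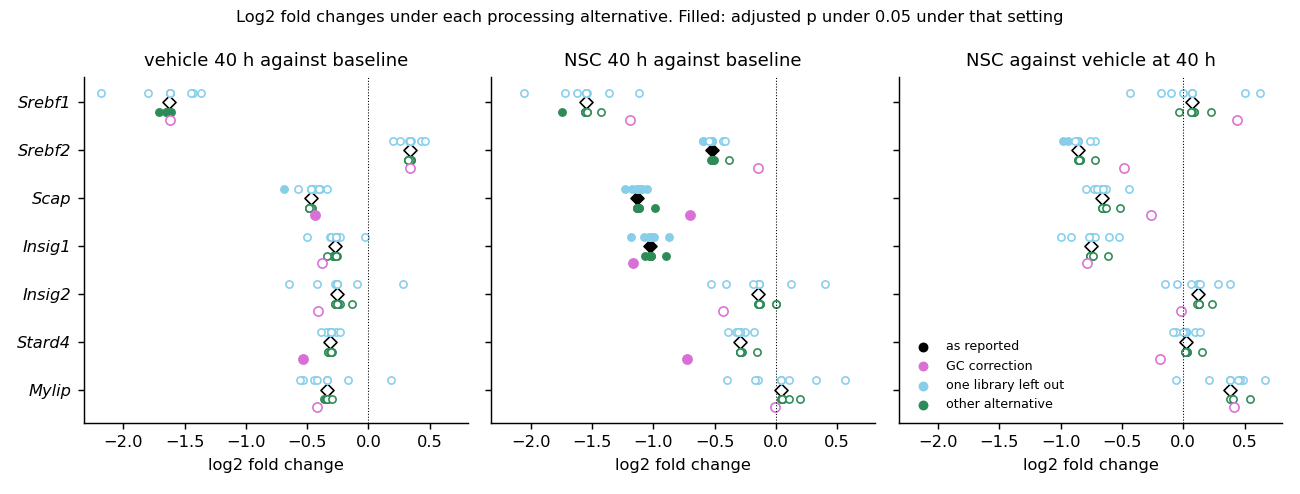
Log2 fold change of each gene as reported (diamonds) and under 17 alternatives (circles), by comparison, filled where the adjusted p was under 0.05. In NSC against baseline all Scap and Insig1 points are filled, 11 of the 17 Srebf2 alternatives are, and the GC correction moves Srebf2 and Scap toward 0 and Stard4 away from it.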

How the data were processed

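Whole-liver mRNA was read from 1 deposited table of 9 libraries in 3 groups of 3 assigned from the sample titles. Per the submitters' notes and the study's methods, the authors made stranded mRNA libraries, aligned reads with STAR 2.6.1 and deposited raw counts per gene from featureCounts (Subread 1.5.1). The notes name the human build hg38, but the deposited identifiers and coordinates are of mouse. All 7 genes lie on the same chromosomes in GENCODE M21 (GRCm38), 4 of them with identical ends and the rest within 85 bases. Whether counting used strand is not given in the sources used here. The authors also deposited FPKM, computed per gene length and library total, which were used for levels between genes.

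Counts were tested with edgeR 4.0.16 in R 4.3.3 (filterByExpr, TMM, robust quasi-likelihood fit to all 9 libraries, Benjamini-Hochberg adjustment over 15024 genes). This test was tried on simulated data first. Log2 CPM had a prior count of 2. Ratios used two-sided exact permutation tests. Alternatives were DESeq2 1.42.0, other scalings and filters, 2 groups alone, a replicate block, leaving out each library, and a GC correction (loess span 0.5) added after seeing the data. A transcript GC value was at hand for 99.2% of them.

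All 7 genes were named. Each pathway list gave up to 4 named genes, the 2 higher and 2 lower with the smallest adjusted p among passing genes, plus Nr1h3, Abca1, Abcg1, Mbtps1, Mbtps2, Fasn and Nr1d1. Some genes that this rule takes are not reported here. The 3 likest genes of each member were named by root mean square difference. The members and lists were chosen with earlier results of these data known. Libraries held 23997363 counts or more, and at the lowest count of each gene the counting SD on the log2 scale was 0.02 to 0.14, below its SD within groups of 0.17 to 0.87. Same-numbered libraries correlated at -0.05 to 0.13 in their deviations from group means, so numbers were not treated as pairs. No 2 libraries of a group agreed within sampling noise. Python 3.11.15 and matplotlib 3.10.9 drew the plots.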

Additional observations from a re-analysis of the deposited data

How the results depend on the processing

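Scap and Insig1 were lower in NSC than baseline livers, with the edgeR or DESeq2 test passed, under all 17 alternatives. The number of members passing for NSC against baseline was 3 and stayed at 2 to 4. For vehicle against baseline it was 0, but 1 with DESeq2, with the 2 groups alone or with the replicate block (Srebf1 each time), 2 with the GC correction (Scap and Stard4), and 0 to 1 with a library left out: without vehicle replicate 2 Scap passed, and without NSC replicate 1 Srebf1. For NSC against vehicle it was 0, but 2 with DESeq2 (Srebf2 and Scap), 1 with all genes of at least 1 count (Srebf2), and 0 to 1 with a library left out, where Srebf2 passed without vehicle replicate 3 or NSC replicate 1 (edgeR adjusted p = 0.0487 and 0.011). With the replicate block Srebf1 passed against baseline in vehicle and NSC livers (edgeR adjusted p = 0.0387 and 0.029); 2 of 3 livers correlated best with their own number in each comparison, and the labels do not pair them.

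Members whose sign changed had not passed. With a library left out, Insig2 ran from -0.65 to 0.28 for vehicle against baseline, -0.53 to 0.40 for NSC against baseline and -0.15 to 0.38 between remnants. Mylip ran from -0.56 to 0.18, -0.40 to 0.56 and -0.057 to 0.67. Between remnants Srebf1 ran from -0.44 to 0.63 and Stard4 from -0.085 to 0.13. The Insig1 to Insig2 log2 ratio for vehicle against baseline ran from -0.72 to 0.25. Against baseline with NSC, Insig2 was at 0.0046 with library size only and Mylip at -0.0027 with the GC correction. Between remnants Srebf1 was at -0.036 with the block, and Insig2 at -0.019 and Stard4 at -0.19 with the GC correction. Library size alone shifted the median of all genes to 0.15 for NSC against baseline and 0.14 between remnants, from 0.01 and 0.02.

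Over the same alternatives, left-out libraries included, 10 to 14 sterol synthesis genes passed for NSC against baseline (11 as reported), 1 to 6 for vehicle (2) and 0 to 8 between remnants (1, and 8 with DESeq2). Of fatty acid synthesis genes 8 to 13 passed for NSC (11), 4 to 11 for vehicle (8) and 0 between remnants. Other lists were less steady against baseline. SREBP processing genes ran from 2 to 9 for NSC (8) and 2 to 6 for vehicle (5). Lipoprotein receptor genes ran from 5 to 11 (10) and 1 to 7 (3), and sterol transport genes from 3 to 9 (7) and 1 to 7 (5). LXR genes ran from 10 to 12 (12) and 6 to 11 (9), and clock genes from 4 to 11 (7) and 3 to 9 (6). The oxysterol list ran from 3 to 5 (4) and 2 to 5 (3). The cause of these shifts was not tested. Of the list counts under alternatives, 336 stayed within 1.5 times the reported count or stayed at 0. The other 72 moved further, or moved between 0 and another count. Most lists had a reported count of 0 between remnants, where staying at 0 says little about firmness. For each member the counting error was below the spread between livers, which set the precision.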
